A study of Mus musculus with 18 samples.

Results

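The Tceal and Bex genes encode a family of small X-linked proteins, and 8 of the 27874 genes in the table were taken as the set: Tceal1, Tceal3, Tceal8, Tceal9, Bex1, Bex2, Bex3 and Bex4. They were selected because Tceal8 was strongly higher in oocytes of Lsm14b knockout (KO) mice than in wild-type (WT) oocytes, so the KO-to-WT differences of the members are given as a description, without a p-value. Of the 8 genes, 4 (Tceal8, Tceal9, Bex3 and Bex4) reached 1 FPKM (fragments per kilobase of exon, scaled to sequencing depth) in at least 3 libraries and were tested; the other 4 were at or close to 0 in nearly all libraries.

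RNA-seq was run on 18 libraries, each made from 15 pooled mouse oocytes, with 3 replicates in each of 6 groups. WT and Lsm14b-/- mice each gave oocytes arrested in prophase with an intact germinal vesicle (GV), in the first meiotic metaphase (MI), and collected 14 h after hCG, the hormone that triggers ovulation. That time point is labelled MII in WT and KO alike, which gives the time of collection and not necessarily the stage that the KO oocytes had reached. The labels give no strain or age of the mice, no description of the Lsm14b allele, and no statement that replicates came from separate mice, so the p-values measure the spread between these libraries, which may be technical. LSM14B is an RNA-binding protein of the LSM14 family, whose members act in storage and translational repression of cytoplasmic mRNA. The study's title puts its question as the part of LSM14B in keeping and clearing maternal mRNA during meiotic maturation.

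Tceal stands for transcription elongation factor A (SII)-like: the proteins resemble parts of TFIIS, the factor that restarts stalled RNA polymerase II. Bex stands for brain-expressed X-linked. BEX proteins are short, largely disordered adaptors, several of which bind the neurotrophin receptor p75NTR or restrain the FEM1B ubiquitin ligase. Both families lie interspersed in a mammal-specific block of the X chromosome, are most abundant in neurons and endocrine cells, and are known to share promoter sequence with their neighbours. A growing oocyte stores mRNA and then stops transcription before meiosis resumes, so that levels in maturing oocytes are set by storage, adenylation and decay of existing mRNA.

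The promoters show what the members share apart from their levels. RefSeq promoter windows of 250 bases before to 50 bases after each annotated start (GRCm38.p6, the build also called mm10) were found for all 8 members. The palindrome CACGTG, an E-box, which reads the same on both strands, was present in 6 of the 8 members, against 2187 of 27025 genes with a window (8.09%). In the same 6 members CACGTG followed TGACG on the same strand after 7 to 9 bases. That arrangement, chosen after the sequences were seen and searched on both strands, occurred in 29 of the 27025 genes (0.107%), of which 8 were Tceal or Bex genes and 5 others, Armcx1, Armcx4, Armcx6, Gla and B230119M05Rik, also lie on the X chromosome. Windows of 30 bases around it are shown for 4 members, 5′ to 3′ on the gene's own strand, with TGACG and CACGTG in capitals. They show one arrangement in Tceal8, whose KO libraries all lay above the WT libraries at all 3 stages, and in genes that differ in this. For Bex4 it held at GV only, and for Bex3 and Tceal1 at no stage.
Tceal8, chrX:136172220-136172249, minus strand: tgaTGACGcgatcctCACGTGaccagcagt
Bex4, chrX:136138972-136139001, plus strand: ttcTGACGcaagtggCACGTGactagccca
Bex3, chrX:136270265-136270294, plus strand: gTGACGcagggccctCACGTGacccggggc
Tceal1, chrX:136707966-136707995, plus strand: gTGACGcgctcccctCACGTGaccaggagc
The first base of CACGTG lay at position 18 after the start in Tceal8, 28 after it in Bex3, 9 before it in Bex4 and 1 before it in Tceal1. Tceal1, which has the arrangement, was at 0 in 15 of 18 libraries, while Tceal9, whose window holds no CACGTG, was detected in all 18. A match of letters is a description of the window and says nothing of binding by a factor.

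The members also resemble each other in sequence in ways that touch the counting. The Bex1 and Bex4 promoter windows share an identical run of 271 bases, and Bex2 and Bex3 one of 162 bases, whereas the longest run shared by Tceal8 and Tceal9 is 17 bases. Over the annotated exons, 49.7% of the distinct 50-base words of Bex4 also occur in another gene, among them Bex1 (25.8%) and the processed pseudogenes Gm12245 (19.7%) and Gm4322 (18.9%). The share was 22.2% for Bex2, 21.1% for Bex1, 12.9% for Tceal3 and 12.3% for Bex3. It was 0.806% for Tceal8 and 0 for Tceal9 and Tceal1. How the authors counted reads that match more than 1 gene is not given in the sources used here, so the Bex values, and those of Bex4 in particular, are uncertain to that extent.

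The depth by which FPKM was scaled, recovered from the FPKM steps, was 14227757 to 17183671 reads per library. The reads recovered in genes came to more, 14577082 to 17636696. The libraries held 7352 to 9795 genes at 1 FPKM or more. The targeted gene matched the genotype labels: Lsm14b was 2.30 ± 0.265 FPKM (SD, n = 3) in WT GV, 7.08 ± 3.6 in WT MI and 9.34 ± 1.73 in WT MII oocytes, and 0.116 ± 0.117, 0.124 ± 0.00293 and 0.113 ± 0.0952 in the KO groups at the same stages. Markers of the oocyte (12 genes, among them Zp3 and Gdf9) summed to 9898 to 26461 FPKM per library, whereas 15 cumulus and granulosa markers summed to 5.22 to 12.5 FPKM, with none at 0 in every library and 5 reaching 1 FPKM in at least 1 library. Replicates correlated within their group with a mean Pearson r of 0.965 to 0.984 in 5 of the groups, and of 0.907 to 0.948 in KO GV, where replicate 2 was lowest. With 15 oocytes pooled, fewer expressing oocytes and less RNA per oocyte cannot be told apart.

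Tceal8 (chrX:136168984-136172342, minus strand, protein coding) was the one member abundant in KO oocytes, and it was higher there than in WT at all 3 stages. In WT GV oocytes it stood at 5.39, 6.97 and 2.25 FPKM in replicates 1 to 3, and in KO GV oocytes at 93.1, 34.9 and 113 FPKM. In WT MI oocytes it stood at 0.925, 0.977 and 0.561 FPKM, and in KO MI oocytes at 51.0, 28.3 and 171 FPKM. In WT MII oocytes it stood at 1.34, 3.32 and 0.552 FPKM, and in KO MII oocytes at 33.3, 27.3 and 27.7 FPKM. At each stage every KO library lay above every WT library: the lowest KO value was 5.01 times the highest WT value at GV, 29.0 times at MI and 8.22 times at MII.

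The ratio of the Tceal8 group means was 16.5 at GV (80.5 ± 40.7 against 4.87 ± 2.40 FPKM, SD, n = 3), 101.5 at MI (83.3 ± 76.5 against 0.821 ± 0.227) and 16.9 at MII (29.4 ± 3.39 against 1.74 ± 1.43). On the log2(FPKM + 1) scale, which understates changes of low genes, the differences were 3.73, 5.14 and 3.60, each with a standard error of 0.53. The low WT values were still counted: the WT MI libraries held 22 to 40 Tceal8 reads, where 3 reads, the limit that a count of 0 allows, equal 0.0681 to 0.0823 FPKM depending on the library, and the KO MI libraries held 1248 to 7223. Among the 10320 genes tested, ordered from the largest increase in KO downwards, the difference ranked 1 at GV, 1 at MI and 13 at MII. That rank is what led to the choice of the set. Within each library, Tceal8 ranked between 418 and 1316 of all genes by FPKM in KO GV, and between 3463 and 5867 in WT GV. In WT MI it ranked between 9311 and 9876, and in KO MI between 248 and 1373.

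Ordered by mean, Tceal8 was highest in KO MI and KO GV, followed by KO MII, WT GV, WT MII and WT MI. KO MI and KO GV overlapped, as did KO MI and KO MII, but every KO GV library was above every KO MII library. WT GV and WT MII overlapped, and so did WT MII and WT MI, while every WT GV library was above every WT MI library. The spread in KO was wide at GV and MI: KO MI replicate 3 stood at 171 FPKM and replicate 2 at 28.3. Tceal8 made up 47.9% to 85.6% of the summed FPKM of the 8 members in KO GV libraries, 76.9% to 93.0% in KO MI and 65.6% to 93.4% in KO MII. In WT its share was 26.7% to 63.2% at GV, 4.10% to 16.8% at MI and 18.6% to 40.3% at MII.

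**Figure D1:**
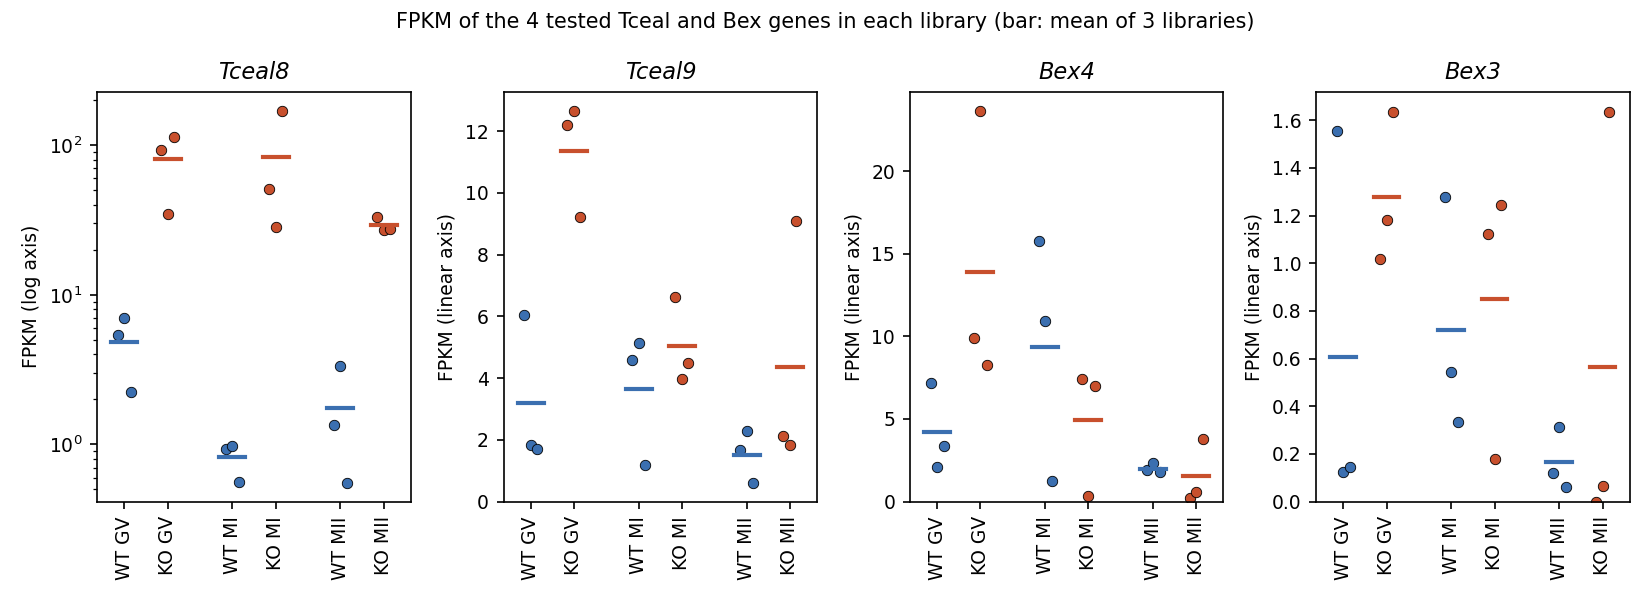
FPKM of Tceal8 (log axis), Tceal9, Bex4 and Bex3 (linear axes) in each of the 18 libraries, with points for replicates 1 to 3 from left to right and a bar at each group mean (blue WT, red KO). For Tceal8 the KO libraries, at 27.3 to 171 FPKM, lie above all WT libraries, at 0.552 to 6.97 FPKM. The KO libraries of Tceal9 and Bex4 lie above the WT libraries at GV and overlap them at MI and MII. Those of Bex3 overlap at all 3 stages. The share of all genes without overlap is not given here.

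Tceal9 (chrX:136245079-136247139, plus strand), also known as WW domain-binding protein 5, was the second Tceal gene detected. In WT GV oocytes it stood at 6.03, 1.82 and 1.69 FPKM and in KO GV oocytes at 12.2, 12.7 and 9.22 FPKM. At this stage the groups did not overlap, with a ratio of means of 3.57 and a log2 difference of 1.70 (standard error 0.47). The WT MI libraries held 4.57, 5.15 and 1.20 FPKM, and the KO MI libraries 6.62, 3.98 and 4.50. The WT MII libraries held 1.66, 2.29 and 0.593 FPKM, and the KO MII libraries 2.12, 1.85 and 9.08. At these later stages the groups overlapped, and the log2 differences were 0.49 and 0.90, the MII mean of KO resting on replicate 3.

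Bex4 (chrX:136138996-136140443, plus strand), a BEX protein reported to bind alpha-tubulin, is the gene nearest to Tceal8, 28.5 kb away. The WT GV libraries held 7.16, 2.11 and 3.36 FPKM, and the KO GV libraries 9.87, 23.6 and 8.28. The KO libraries were all above the WT libraries at GV, with a ratio of means of 3.31 and a log2 difference of 1.50 (standard error 0.72). At MI the WT libraries held 15.8, 10.9 and 1.25 FPKM, and the KO libraries 7.40, 0.348 and 7.02. At MII the WT libraries held 1.91, 2.32 and 1.76 FPKM, and the KO libraries 0.219, 0.591 and 3.80. The groups overlapped at both later stages, where the KO mean was the lower one, with log2 differences of -0.77 and -0.51. The sign at MI depended on single libraries, as the difference ranged from -1.66 to 0.10 when each library was left out in turn.

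Bex3 (chrX:136270253-136271978, plus strand), the p75NTR-associated member, was near the limit of detection. Its GV values were 1.56, 0.125 and 0.144 FPKM for WT against 1.02, 1.18 and 1.64 for KO. Its MI values were 1.28, 0.542 and 0.336 FPKM for WT against 1.12, 0.179 and 1.25 for KO. Its MII values were 0.122, 0.312 and 0.0632 FPKM for WT against 0, 0.0635 and 1.63 for KO, resting on 0 to 26 reads. The groups overlapped at all 3 stages, and the log2 differences were 0.61, 0.09 and 0.28 (standard error 0.36).

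The share of all 10320 tested genes with an adjusted p under 0.05 in limma was 13.3% higher and 7.49% lower in KO at GV, 3.63% and 13.7% at MI, and 14.9% and 13.8% at MII. As deposited, 1373 genes were called higher and 773 lower at GV and 375 and 1411 at MI, whereas with median-of-ratios scaling the split was 1190 and 1398 at GV and 840 and 1179 at MI. Since the members were chosen on this contrast, nothing is read from how many of them separated. The share of all genes whose libraries do not overlap between the genotypes is not given here, so non-overlap is a description without a baseline. The cumulus and granulosa markers summed to 5.22 to 9.39 FPKM in WT GV and to 9.94 to 12.5 in KO GV, without overlap, so they were higher at the stage at which Tceal9 and Bex4 separated. At MI their sum was 6.67 to 10.7 in WT and 7.63 to 8.89 in KO, and at MII 8.71 to 10.4 and 6.34 to 9.30, while Tceal8 was far apart between the genotypes at both stages. Of 9 neuroendocrine markers, the tissue type in which the family is most abundant, Uchl1, a ubiquitin hydrolase that is also abundant in oocytes, held most of the sum at GV and MI. Uchl1 stood at 407 to 687 FPKM in WT GV and 633 to 1633 in KO GV, and the other 8 summed to 54.8 to 75.8 and 70.5 to 137 FPKM. At the later stages Uchl1 did not overlap between the genotypes: it stood at 423 to 620 FPKM in WT MI and 822 to 960 in KO MI, and at 37.1 to 50.01 in WT MII and 185 to 414 in KO MII. The other 8 overlapped there, at 49.7 to 70.6 and 63.1 to 111 FPKM at MI and 49.1 to 85.2 and 44.2 to 70.9 at MII, in WT and KO. Blood markers at GV summed to 0.00384 to 0.130 FPKM in WT and to 0.531, 0.958 and 0.774 in KO replicates 3, 2 and 1, without overlap. In KO GV their order over the replicates was that of the summed Tceal9, Bex4 and Bex3 level (19.1, 37.5 and 23.1 FPKM). The orders also matched in WT MII, but not in WT GV, WT MI, KO MI or KO MII. In KO MI, replicate 2 held the highest blood sum (0.322 FPKM) and the lowest summed level of those genes (4.51 FPKM). The part of these markers in the members' differences was not tested.

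Tceal1, Tceal3, Bex1 and Bex2 were not tested. Tceal1, a nuclear phosphoprotein gene, gave 8 reads over the 18 libraries, 6 of them in KO MI replicate 1. Tceal3 gave 1 read, and Bex1, whose product takes part in neurotrophin signalling, gave 4 reads, all at GV. Bex2 gave 11 reads, of which 10 were in 2 of the KO GV libraries (4 and 6 reads, 0.293 and 0.450 FPKM) and 1 in a WT GV library. A count of 0 allows up to 3 reads per library, which is 0.0623 to 0.0752 FPKM for Tceal1, 0.0492 to 0.0595 for Tceal3, 0.147 to 0.178 for Bex1 and 0.193 to 0.234 for Bex2, by counting error only. Differences of these genes between the genotypes were not detectable at this depth. Of the relatives outside the set, Tceal5 gave 2 reads and Bex6, on chromosome 16, reached at most 0.875 FPKM, and neither passed the filter. No read count is given for Bex6, whose values were not whole reads at the exon length used.

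The change over maturation within a genotype was not used in choosing the set, although it shares libraries with the contrast that was. In WT, 0 of the 4 genes passed the test from GV to MI, against 2.75% of all tested genes higher and 2.06% lower. Tceal8 had a log2 change of -1.60 (standard error 0.53, limma adjusted p = 0.0742, unadjusted p = 0.00707), Bex4 one of 0.68 (adjusted p = 0.55), Bex3 one of 0.17 (0.782) and Tceal9 one of 0.16 (0.846). From GV to MII in WT, again 0 of 4 passed, while 28.9% of all tested genes were higher and 28.8% lower. Tceal8 had a change of -1.13 (limma adjusted p = 0.0741, unadjusted p = 0.0458), and the other 3 had changes of -0.36 to -0.68 with adjusted p of 0.247 to 0.425. The change of Tceal8 in WT passed under 7 of 28 alternatives to MI and under 7 to MII, among them those without KO GV replicate 2 or KO MI replicate 3, libraries that enter only through the shared estimate of the spread.

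Median-of-ratios scaling changed the split of all genes called from GV to MI in WT from 284 higher and 213 lower to 159 and 681, and from GV to MII in KO from 1224 and 2618 to 2132 and 2532. From GV to MI in KO it changed the split from 261 and 1076 to 503 and 1158.

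In KO, 0 of the 4 genes passed from GV to MI, where 2.53% of all tested genes were higher and 10.4% lower. The changes were -0.19 for Tceal8 (limma adjusted p = 0.876), -0.35 for Bex3 (0.596), -1.05 for Tceal9 (0.162, unadjusted 0.0392) and -1.59 for Bex4 (0.161, unadjusted 0.0389). From GV to MII in KO, Bex4 and Tceal9 fell, 2 of 4 where 25.4% of all tested genes were lower and 11.9% higher. Bex4 fell by 2.69 on the log2 scale (standard error 0.72, limma adjusted p = 0.00627) and every KO MII library was below every KO GV library, as the values above show. Tceal9 fell by 1.45 (standard error 0.47, limma adjusted p = 0.0211), and again the groups did not overlap, though KO MII replicate 3, at 9.08 FPKM, was just below the lowest KO GV value. Tceal8 had a change of -1.27 (limma adjusted p = 0.0682) and Bex3 one of -0.68 (0.143). These passed under 4 of 28 and 2 of 27 alternatives, for Bex3 among them without KO MII replicate 3.

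The fall of Bex4 in KO passed under all 28 alternatives run, with limma adjusted p up to 0.0378. That of Tceal9 did not pass without KO GV replicate 1 (limma adjusted p = 0.0545) or 2 (0.0503), or without KO MII replicate 1 (0.0988) or 2 (0.107), nor with no filter on low values (0.0774) or with only the groups compared in the fit (0.0583).

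**Figure D2:**
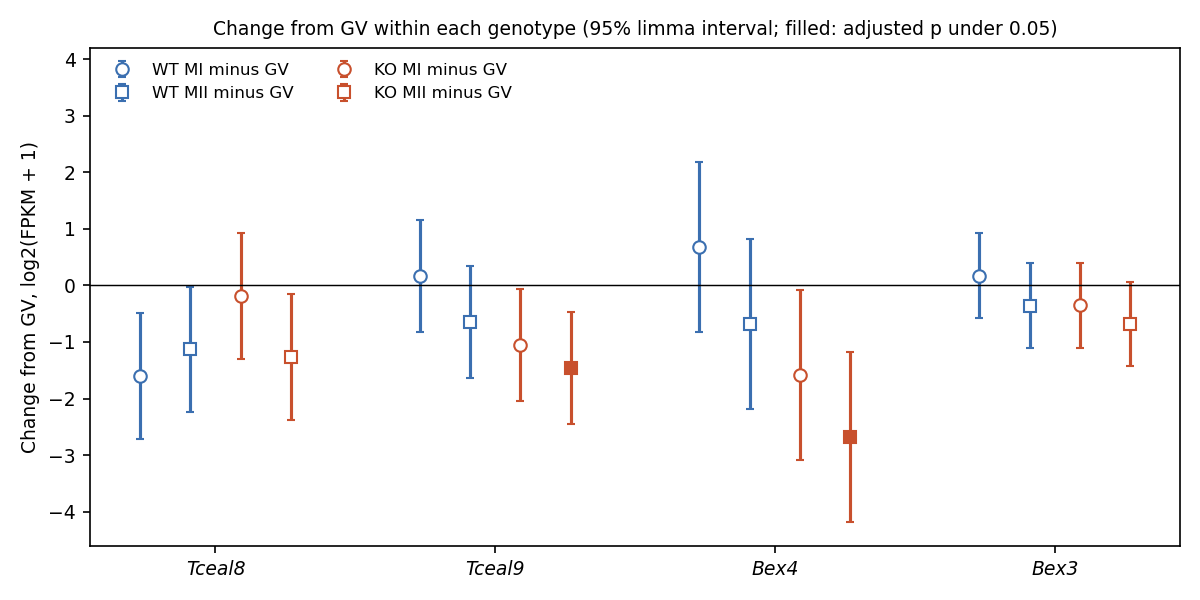
Change from GV to MI (circles) and to MII (squares) on the log2(FPKM + 1) scale in WT (blue) and KO (red) for the 4 tested genes, with 95% limma intervals and filled symbols for an adjusted p under 0.05. The filled symbols are Bex4 at -2.69 and Tceal9 at -1.45, both from GV to MII in KO.

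The falls in KO were not shown to differ from the changes in WT. The difference between the genotypes in the change from GV to MII was -2.00 for Bex4 (limma adjusted p = 0.20, 95% interval -4.13 to 0.12), -0.81 for Tceal9 (0.441, -2.20 to 0.59) and -0.33 for Bex3 (0.703, -1.39 to 0.73). For the change from GV to MI it was -2.27 for Bex4 (limma adjusted p = 0.353, unadjusted 0.0377), -1.21 for Tceal9 (0.433) and -0.52 for Bex3 (0.624). None of the 3 genes passed at an adjusted p under 0.05 at either stage. Of all tested genes, 3.88% had a higher and 1.73% a lower change to MII in KO, and 0.00969% and 0.0678% for the change to MI. For Tceal8, given without a test, the differences were 1.41 to MI and -0.13 to MII (standard error 0.75).

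The 3′ ends bear on levels in maturing oocytes, since a cytoplasmic polyadenylation element (CPE) near the end of an mRNA is known to direct lengthening of its tail, and oligo(dT) priming reads the tail. The words TTTTAT or TTTTAAT, searched on the mRNA strand, occur in the last 100 bases of the longest coding transcript of 16.7% of 21767 protein-coding genes in GENCODE vM21. Among the members they occur in Tceal9 alone, beginning 21 bases from the end. The word there follows the polyadenylation signal AATAAA, which begins 29 bases from the end. Whether it acts as a CPE at that place was not tested. Windows of 30 bases around the signal, which stop short of the transcript ends, are shown for transcripts Tceal9-201 and Tceal8-201. The signal and the matched word are in capitals. These are the Tceal genes detected, and they differ in whether the word is present.
Tceal9: cttgctaaaaatAATAAAggTTTTATaact
Tceal8: cttagccagaggAATAAAactggcaatcat
No word of this kind was found in the last 100 bases of Tceal8 or Bex4 transcripts.

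The genes most like Tceal8 over the 18 libraries, by Pearson r of log2(FPKM + 1) among 3942 protein-coding genes with a mean of at least 5 FPKM, were Sycp3 (0.919), Hsph1 (0.859), Fam92a (0.846), Sqstm1 (0.842) and Cnpy4 (0.841). Such r values are a description: the libraries share the genotype and stage groups. Sycp3 was the only 1 of these 3942 genes at 0.9 or more. It passed the limit of 5 FPKM through its KO libraries, as its WT means below lie under that limit. Sqstm1 also passed through its KO libraries, as its WT means below average under 5 FPKM. For deviations from the group means the r with Tceal8 was 0.512 for Sycp3, 0.47 for Fam92a, 0.193 for Hsph1, 0.058 for Sqstm1 and 0.024 for Cnpy4. Sycp3, of the axial element of the synaptonemal complex, stood at 1.70 ± 0.435 FPKM in WT GV and 13.6 ± 4.30 in KO GV (SD, n = 3). Its means were 1.77 and 14.99 FPKM at MI and 2.13 and 7.10 at MII, in WT and KO. Hsph1, an HSP110 chaperone, went from 15.7 to 96.5 FPKM at GV, 19.2 to 64.1 at MI and 16.6 to 44.7 at MII. Sqstm1, the autophagy receptor p62, went from 5.20 to 19.7, 5.29 to 13.2 and 2.42 to 12.4 FPKM. Fam92a, a BAR-domain protein, had means of 6.76 and 15.1 FPKM at GV, and Cnpy4, of the canopy family, 154 and 201 FPKM.

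**Figure D3:**
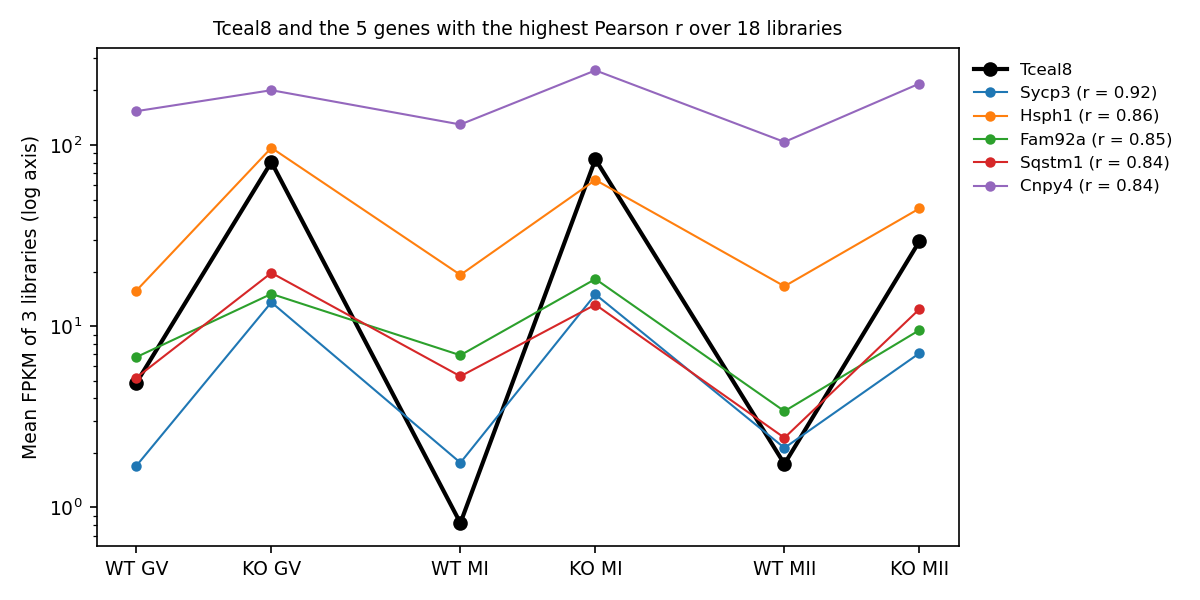
Mean FPKM of 3 libraries (log axis) in each of the 6 groups for Tceal8 (black) and the 5 genes with the highest Pearson r among the 3942 compared. In each line the KO mean lies above the WT mean at every stage, and the step is widest for Tceal8, from 0.821 to 83.3 FPKM at MI.

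The r of Tceal8 over the 18 libraries was 0.62 with Tceal9, 0.427 with Bex3 and 0.146 with Bex4. For deviations from the group means it was 0.159, 0.35 and 0.205, again without a test. Among the other 3, deviations from the group means correlated at 0.758 for Tceal9 and Bex4, 0.802 for Tceal9 and Bex3, and 0.765 for Bex4 and Bex3. WT GV replicate 1 and KO MII replicate 3 held the highest values of all 3 genes in their groups, and WT MI replicate 3 the lowest. The summed level of Tceal9, Bex4 and Bex3 was 14.7 FPKM in WT GV replicate 1 against 4.06 and 5.20 in replicates 2 and 3, and 14.5 in KO MII replicate 3 against 2.34 and 2.50. Blood markers summed to 5.15 FPKM in KO MII replicate 3, against 0.433 and 0.0761 in replicates 1 and 2, and to 27.9 in WT MI replicate 2, of which Lyz2 held most. In WT GV replicate 1 they summed to 0.110 FPKM, close to 0.130 in replicate 2. The part of these markers in the shared variation was not tested.

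Along the chromosome, 5 tested genes outside the set lay within 1000 kb of Tceal8, and none of them passed as higher in KO in limma at any stage. At an unadjusted p under 0.05, 1 of the 5 was higher at each stage: Fam199x at GV, and Morf4l2 at MI and MII (limma adjusted p = 0.0657, 0.0635 and 0.0769). Armcx5 was lower at all 3 stages, and Arxes2 was lower at MII, with means of 3.10 FPKM in KO and 6.44 in WT (limma adjusted p = 0.0316). Tceal5, 28.6 kb from Tceal8 on the side away from Bex4, gave 2 reads in all, and Bex1, 41.6 kb away, gave 4. Of 386 tested X-linked genes, 18.1% were higher and 6.48% lower in KO at GV, 7.51% and 9.07% at MI, and 18.9% and 11.9% at MII.

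**Figure D4:**
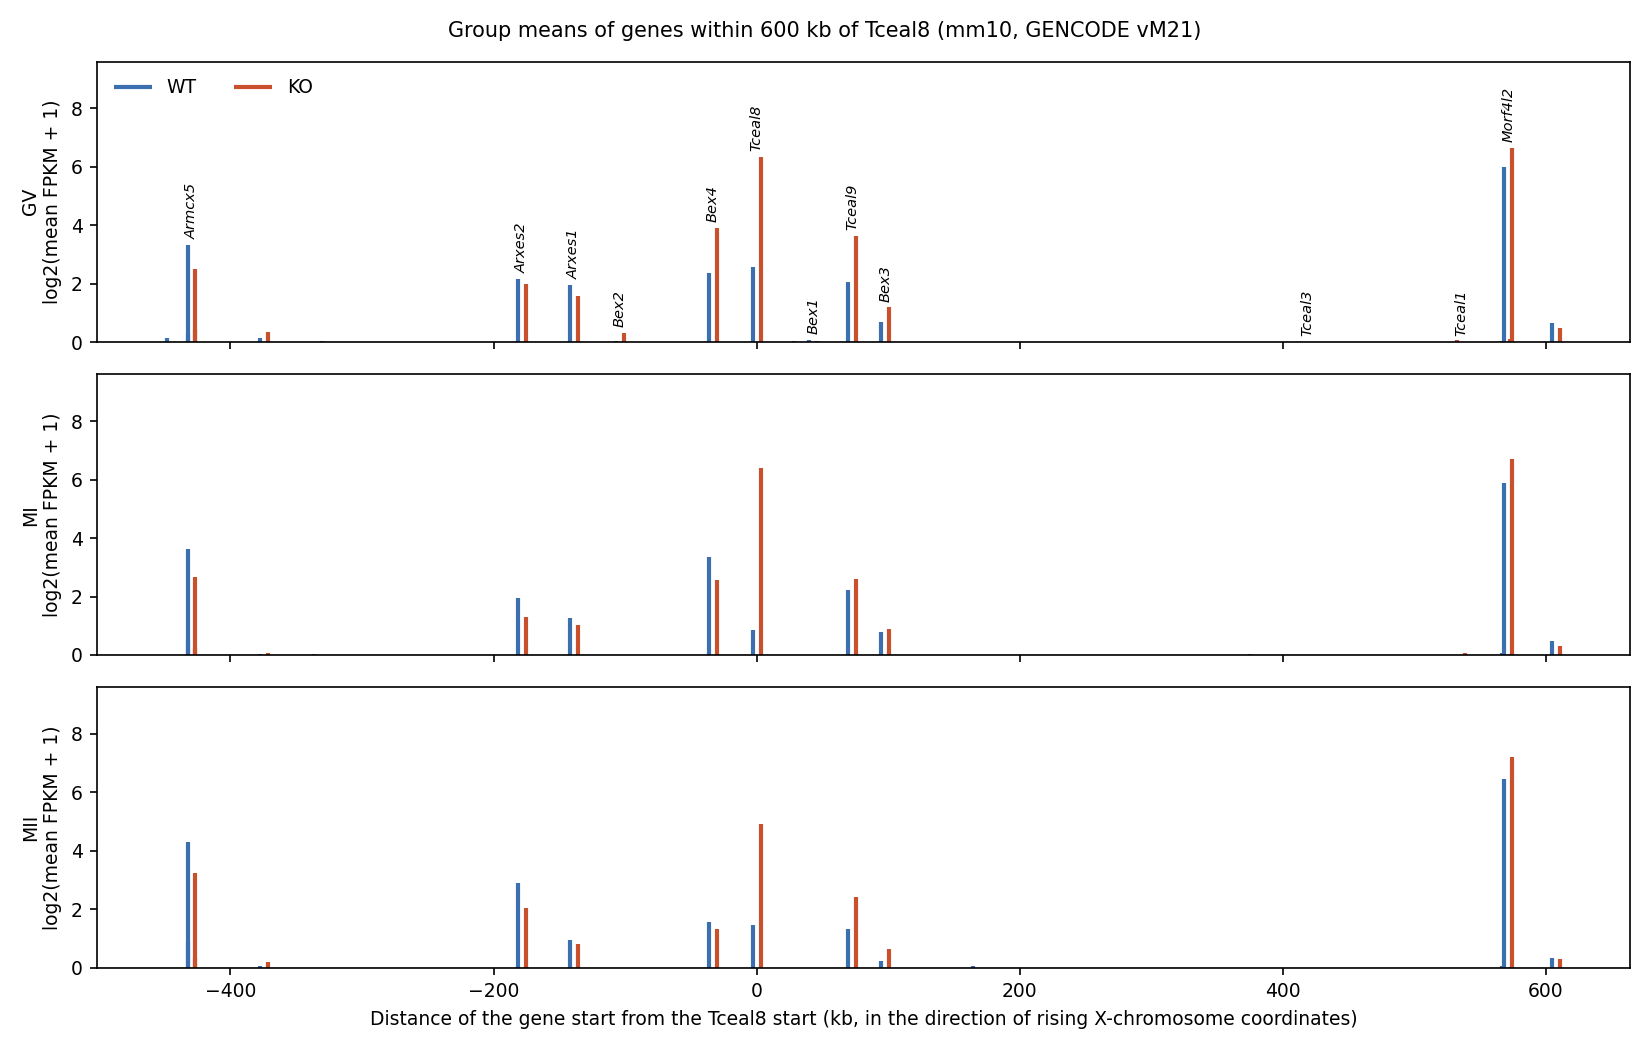
Group means on the log2(mean FPKM + 1) scale of genes within 600 kb of Tceal8, by the distance of the gene start from the Tceal8 start in kb, at GV, MI and MII (blue WT, red KO, drawn side by side). Tceal8 stands out in KO at all 3 stages, and Bex4, 28.5 kb away, is higher in KO at GV (13.9 against 4.21 FPKM). At MI its KO mean is the lower one (4.92 against 9.33), but the libraries of the genotypes overlap there.

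A list of 43 other genes of this X-chromosome block had 10 tested members, of which 3 were higher and 1 lower in KO at GV, 1 and 2 at MI, and 1 and 2 at MII. The shares of all tested genes were 13.3% higher and 7.49% lower at GV, 3.63% and 13.7% at MI, and 14.9% and 13.8% at MII. The list's median log2 difference was 0.47, 0.18 and 0.34, beside 0.17, -0.13 and 0.01 over all genes tested. Armcx5, an armadillo-repeat gene, was lower in KO at all 3 stages, from 9.03 ± 0.688 to 4.61 ± 0.507 FPKM at GV (SD, n = 3), from 11.3 to 5.36 at MI and from 18.9 to 8.58 at MII (limma adjusted p = 0.0226, 0.00736 and 0.00335). Hnrnph2, an RNA-binding splicing factor, was higher at all 3, from 3.09 to 5.54 FPKM at GV, 3.26 to 7.43 at MI and 3.82 to 6.67 at MII (limma adjusted p = 0.0439, 0.00575 and 0.0323). Timm8a1, a mitochondrial import chaperone, was lower at MI, from 11.5 to 5.38 FPKM (limma adjusted p = 0.0117), and Btk, a kinase of B-cell signalling, was higher at GV, from 2.75 to 5.52 FPKM (0.034). At GV, 0 genes of this list were higher with median-of-ratios scaling, quantile normalization, recovered reads or only the groups compared. The same held without KO GV replicate 1 or without any 1 WT GV library. Over all genes, 1373 were higher as deposited and 92 with only the groups compared. With median-of-ratios scaling there were 1190, with quantile normalization 1380 and with recovered reads 1214. Without KO GV replicate 1 there were 628, and without 1 WT GV library 431 to 898. The call of Armcx5 at GV was lost without KO GV replicate 2 or any 1 WT GV library, and with only the groups compared. The call of Timm8a1 was lost without WT MI replicate 2, that of Btk under 10 of 28 alternatives, and those of Hnrnph2 under 15 at GV and 6 at MII, but none at MI.

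Elongation factors of RNA polymerase II, one of which the Tceal proteins resemble, moved both ways. Of 32 genes listed, 27 were tested: 5 were higher and 1 lower in KO at GV, 1 and 2 at MI, and 5 and 3 at MII, with medians of 0.65, 0.10 and -0.08. Over all tested genes, 13.3% were higher and 7.49% lower at GV, 3.63% and 13.7% at MI, and 14.9% and 13.8% at MII. The all-gene medians were 0.17, -0.13 and 0.01. Tcea1, which encodes TFIIS itself in most tissues, was lower in KO at all 3 stages, from 41.6 ± 7.34 to 23.4 ± 1.74 FPKM at GV (SD, n = 3), 43.9 to 19.9 at MI and 49.6 to 21.0 at MII (limma adjusted p = 0.0207, 0.00273 and 0.000526). Tcea3, a tissue-restricted TFIIS, was higher in KO at MII, 30.2 ± 5.27 against 5.70 ± 0.885 FPKM (log2 difference 2.22, limma adjusted p = 4.49e-06). Eloc, the elongin C subunit, was also higher at MII, 632 against 165 FPKM (2.00 by log2, limma adjusted p = 4.7e-05), whereas Larp7, which stabilises the 7SK RNA, was lower, 27.2 against 61.9 FPKM (-1.18, limma adjusted p = 0.00333). The counts at GV rested on single libraries: 0 and 0 genes passed without KO GV replicate 1 or without replicate 2, and 19 and 1 without replicate 3. The all-gene counts moved as well. They were 628 higher and 586 lower of 10179 without replicate 1, and 451 and 564 of 10116 without replicate 2. Without replicate 3 they were 3024 and 1078 of 10262. The counts at GV were also 0 and 0 without WT GV replicate 3 and with only the groups compared in the fit. All genes gave 431 higher and 463 lower in the first of these fits, and 92 and 210 in the second. Tcea1 was thus among those not passing at GV in all 4 of these fits, while it passed at MI and MII under all 28 alternatives.

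Of 25 partners and pathway genes of BEX proteins, 24 were in the table and 13 were tested: 2 were higher and 1 lower in KO at GV, 1 and 0 at MI, and 4 and 0 at MII, with medians of 0.17, 0.10 and 0.47. Beside them, all tested genes had shares of 13.3% higher and 7.49% lower at GV, 3.63% and 13.7% at MI, and 14.9% and 13.8% at MII. Their medians were 0.17, -0.13 and 0.01. Fem1b, the ubiquitin ligase receptor that BEX proteins restrain, was higher at GV, 6.68 ± 2.56 against 2.92 ± 0.837 FPKM (SD, n = 3; log2 difference 0.93, limma adjusted p = 0.032). Its values at MI were 7.41 and 6.16 FPKM in KO and WT, and at MII 7.33 and 5.87 (limma adjusted p = 0.569 and 0.524). Ripk2, a kinase that binds p75NTR, was higher in KO at all 3 stages by 0.83, 0.68 and 0.64 on the log2 scale (limma adjusted p = 0.0184, 0.0479 and 0.0423). Calm2, a calmodulin gene, was lower in KO at GV, 193 against 427 FPKM (limma adjusted p = 0.0224), and higher at MII, 177 against 55.6 FPKM (0.00249). Ywhae, a 14-3-3 protein, was higher at MII, 687 against 329 FPKM (limma adjusted p = 0.0192). The call of Fem1b at GV was lost under 6 of 28 alternatives and that of Calm2 at GV under 5, both including the fits without KO GV replicate 2, with no filter and with only the groups compared. Those of Ripk2 were lost under 7, 19 and 14 at GV, MI and MII, and that of Ywhae at MII under 7.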

How the data were processed

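Per the labels' protocols, RNA of 15 oocytes was copied from oligo(dT) primers, the cDNA amplified by the Smart-seq2 method, and Illumina libraries were built from sheared cDNA. The authors deposited 1 table of FPKM values, 27874 genes by 18 libraries. The submitters' processing notes list mm10 and DESeq2 (1.38.3) but not what each was used for; the aligner, counter, annotation and strandedness were not given in the sources used here. Levels may depend on tails as well as mRNA amount.

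Identifiers were matched to GENCODE vM21 (27829 found, 45 not). FPKM times exon length gave whole reads, within 0.05, for 92.6% to 93.2% of nonzero values. Read floors cover counting error only, because amplified reads lack molecular identifiers and do not stand for independent molecules.

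Genes at 1 FPKM or more in at least 3 libraries (10320) were fitted with limma 3.58.1 (R 4.3.3) on log2(FPKM + 1), 6 group means, 12 residual degrees of freedom, variance trend; p-values are two-sided, Benjamini-Hochberg adjusted within each comparison, threshold 0.05. The fit was tested on simulated data. Python 3.11.15, numpy 2.4.6, pandas 2.3.3 and matplotlib 3.10.9 were used.

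Members and lists were chosen with earlier results of these data known. Named were the members, Lsm14b, the 5 genes most like Tceal8 (predicted genes left out), and up to 4 genes per list with the smallest p among those called in KO against WT; Arxes2, Fam199x and Morf4l2 were named after their values were seen. Alternatives changed the pseudocount (0.1, 5), filter (none, 5 FPKM), scaling (median-of-ratios, quantile, TPM), libraries in the fit, replicate block, and tested value (recovered reads, voom), and left out each library.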

Additional observations from a re-analysis of the deposited data

How the results depend on the processing

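The genotype difference of Tceal8 kept its sign under all 28 alternatives, from 3.00 to 4.24 on the log2 scale at GV, 3.57 to 6.44 at MI and 2.37 to 4.45 at MII. No member passed in WT from GV to MI, but 1 did, Tceal8, with a pseudocount of 0.1, quantile normalization, only the groups compared, or recovered reads (voom), and 0 to 1 when single libraries were left out. From GV to MII in WT, 1 passed with a pseudocount of 0.1, only the groups compared or recovered reads, and 0 to 1 with single libraries left out. From GV to MII in KO, 1 of the 2 calls was left with no filter or only the groups compared, and 1 to 3 with single libraries left out. Signs changed for results that had not passed. Tceal9 in WT from GV to MI (0.16) was -0.13 with median-of-ratios scaling, -0.10 with quantile normalization, -0.10 with recovered reads, and -0.11 to 0.64 without single libraries. Bex3 there (0.17) was -0.01 with quantile normalization and -0.05 to 0.56 without single libraries; its change to MII (-0.36) was -0.56 to 0.03. Tceal8 in KO from GV to MI (-0.19) was -0.90 to 0.37, and positive without KO GV replicate 3 (0.14) or KO MI replicate 2. The cause of these changes was not tested. Bex3 was not fitted with a filter at 5 FPKM.

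Over all genes, the higher share of calls at GV was 64.0% as deposited, 46.0% with median-of-ratios scaling and 50.6% with quantile normalization, and at MI 21.0%, 41.6% and 47.3%. With median-of-ratios scaling, the all-gene median difference went from 0.17 to -0.02 at GV and from -0.13 to 0.01 at MI. Only 92 genes were higher and 210 lower at GV with only the groups compared, against 1373 and 773.

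Replicate numbers showed no pairing of the libraries: deviations of the 45 same-numbered pairs correlated at -0.522 to 0.42 (median -0.0505), and 15 were over 0.1. The 90 pairs with different numbers correlated at -0.442 to 0.574 (median 0.0483), and 33 were over 0.1. Such r values cannot show how the replicates were collected. With a replicate block, Bex4 in KO from GV to MII was -2.69 (limma adjusted p = 0.0106), 2 members passed as without it, and no member's call changed; of the named list genes, Ripk2 at MI and Hnrnph2 at GV no longer passed in KO against WT.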
